A study of Mus musculus with 8 samples.

Results

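The fatty acid desaturases and elongases are the enzymes of the endoplasmic reticulum that insert unsaturated bonds into fatty acids and lengthen them. The 10 genes described here were found by matching the gene identifiers of the count tables to their symbols in the GENCODE mouse annotation, which gave 1 row each among 56884 rows. Of them, 4 act on polyunsaturated fatty acids (Fads1, Fads2, Elovl2 and Elovl5), 4 on monounsaturated and saturated chains (Scd1, Scd2, Elovl6 and Elovl1), and 2 are further members of the desaturase family (Fads3 and Fads6). Their transcripts were counted in liver poly(A) RNA of female C57BL/6J mice aged 18 months, 1 library for each of 3 diet-induced obese (DIO) mice and 5 DIO mice given DHA (DIO + DHA). All mice were given, from 2 months of age and for 4 months, a saturated high-fat diet that supplied 45% of its energy as lipids, 35% as carbohydrates and 20% as proteins. The DIO group stayed on it. In the DIO + DHA group 15% by weight of the lipids was then exchanged, until 18 months of age, for a fish oil concentrate holding per gram 683.4 mg docosahexaenoic acid (DHA), 46.7 mg eicosapentaenoic acid (EPA) and 838.9 mg n-3 polyunsaturated fatty acids in all. Both late diets carried the same tocopherol mix, and no group on a regular chow diet was sequenced, so the values compare 2 high-fat diets.

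The polyunsaturated branch turns dietary linoleic and alpha-linolenic acid into long-chain products such as arachidonic acid, EPA and DHA. FADS2 (delta-6 desaturase) and FADS1 (delta-5 desaturase) alternate in it with the elongases ELOVL5 and ELOVL2, and DHA is the end product of its n-3 side. The other branch starts from palmitate, which ELOVL6 lengthens to stearate and which stearoyl-CoA desaturase (SCD1, the main liver form) converts, like stearate, to a monounsaturated acid. In liver, transcription of several of these genes is known to depend on SREBP-1c, LXR and PPARα, and polyunsaturated fatty acids are known as repressors of SREBP-1c.

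Of the 10 genes, 7 were higher in the DIO + DHA group and 0 were lower at an adjusted p under 0.05 (edgeR quasi-likelihood test with Benjamini-Hochberg adjustment over 12412 genes), against 7.89% of all tested genes called higher and 7.28% called lower. The 10 genes were chosen with earlier results of these data known, so these shares give context and are no test of the set. All 4 genes of the polyunsaturated branch were called higher, as were 3 of the other 6. All 10 had a positive log2 fold change, so 0 were lower at an unadjusted p under 0.05 as well, and 0 by DESeq2 or limma. The median log2 fold change (log2FC, DIO + DHA over DIO) was 0.64 for the polyunsaturated branch, 0.40 for the other 6 and 0.0011 for all genes tested. In the same 7 genes the lowest DIO + DHA library exceeded the highest DIO library, which held for 9.54% of all genes tested, while 8.88% were separated in the other direction. All 10 passed the filter on low counts, so none was left out of these counts. Values are given as CPM, counts scaled to a common library total after correction by the TMM method. In whole tissue, fewer cells of a type and less RNA per cell cannot be told apart.

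**Figure D1:**
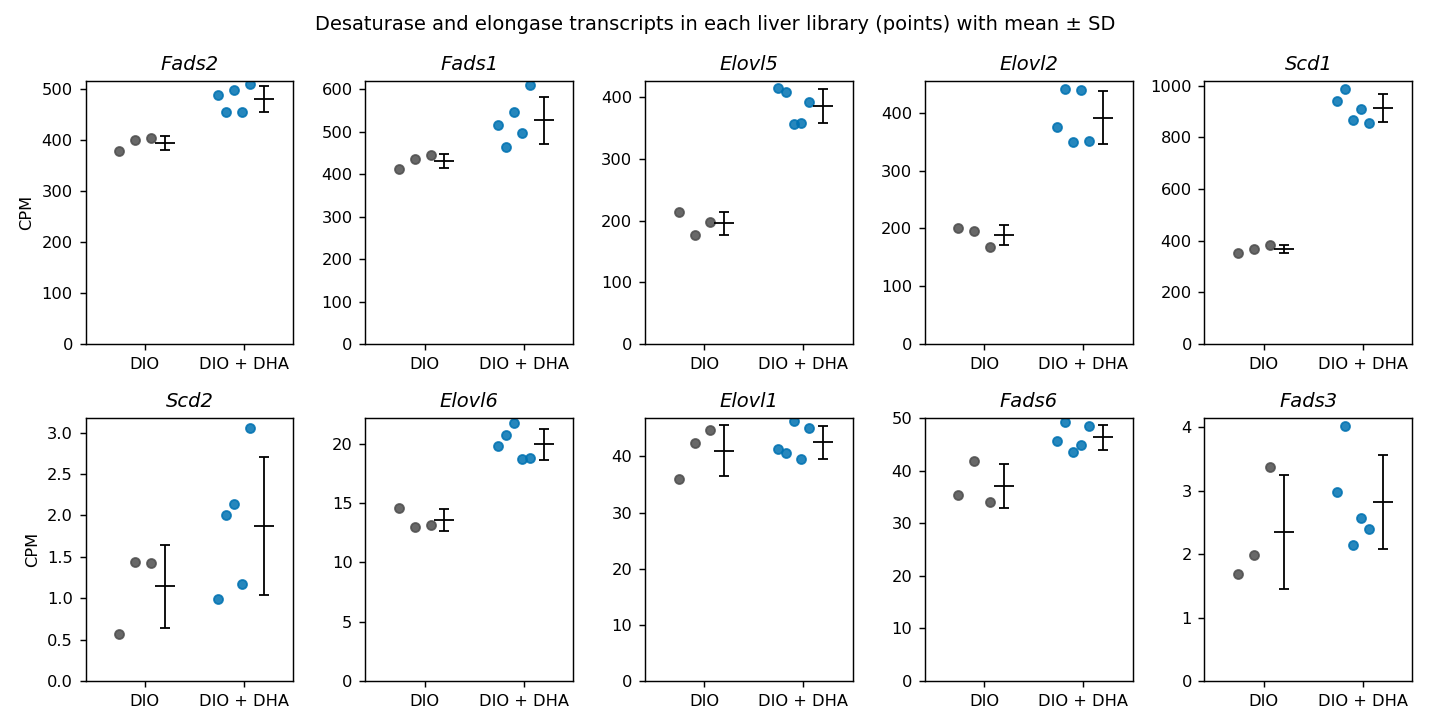
CPM of each of the 10 genes in every liver library (points, DIO n = 3 and DIO + DHA n = 5), with the group mean ± SD beside the points; each panel has its own linear axis from 0. The groups do not overlap for Fads2, Fads1, Elovl5, Elovl2, Scd1, Elovl6 and Fads6, and overlap for Scd2, Elovl1 and Fads3.

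Of these genes, 5 lie on chromosome 19, in a cluster and a pair (GRCm39, the build of the count tables). Fads3 (chr19:10018933-10037474, plus strand), Fads2 (chr19:10040129-10079110, minus strand) and Fads1 (chr19:10160252-10174241, plus strand) follow each other with gaps of 2.65 kb and 81.1 kb. Scd2 (chr19:44282113-44295303, plus strand) and Scd1 (chr19:44382894-44396318, minus strand) are 87.6 kb apart. The Fads cluster held 2 genes that were higher and 1, Fads3, that did not pass the test, and the Scd pair held 1 of each. The elongases were at chr9:77824646-77891801 (Elovl5), chr13:41335857-41373881 (Elovl2), chr3:129326004-129432144 (Elovl6) and chr4:118285290-118290150 (Elovl1), and Fads6 at chr11:115170448-115188489. Annotated exon overlap with another gene was small: 1.94% of the exon bases of Elovl1 with the antisense gene Cdc20 (8 counts over all libraries), 0.529% of those of Elovl6 with the antisense RNA Gm35986 (85 counts), and 1.12% of those of Scd2 with Mir5114 (0 counts).

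Several of the 10 genes are known targets of lipid-responsive factors. The letters of a few recognition motifs were therefore looked up in RefSeq promoter windows, on both strands. A window ran from 250 bases before to 50 bases after a transcript start (GRCm38.p6). Windows were given for 7 of the 10 genes, 9 windows in all, each of which matched GRCm39 exactly once. Fads1, Scd1 and Scd2 had none. The transcript start used lay 243 bases inside the annotated gene for Fads2 and 101 for Fads6. For the second windows of Elovl2 and Elovl1 it lay 243 and 1608 bases inside. The Fads2 window was thus almost wholly within the annotated gene, and the sequence before that gene was barely searched. A gene was counted if any of its windows held the motif, and Elovl1 and Elovl2 had a second window. Counts of genes and shares of windows are thus in unlike units and are not compared. The Sp1 box GGGCGG was present in 5 genes (Fads2, Elovl2, Elovl1, Fads3 and Fads6) and in 35.7% of 32851 windows. The NF-Y box CCAAT was present in 3 genes (Elovl5, Elovl1 and Fads3) and in 37.4% of windows, and the E-box CACGTG, a palindrome, in Elovl5 and in 7.15% of windows. The SREBP element TCACNCCAC (1.24% of windows) and pairs of AGGTCA sites 1 or 4 bases apart in the same direction (0.0396% and 0.0152% of windows) were found in 0 of the 7. Elovl6 held none of these letters, and in Elovl1 a Sp1 box and the NF-Y box share bases. The stretches shown are those of Elovl5 and Elovl2, the elongases of the polyunsaturated branch, whose transcripts differed by similar amounts and whose windows held different motifs. They are written in the direction of the gene with the motifs in capitals (ATTGG is CCAAT on the other strand), with GRCm39 positions:
Elovl5, E-box 161 bases before the start, chr9:77824474-77824503, plus strand: actgccccgagaCACGTGaaccacaggaga
Elovl5, NF-Y box 71 bases before the start, chr9:77824564-77824593, plus strand: tatcgccccaggATTGGttccaaggccgca
Elovl5, NF-Y box 17 bases before the start, chr9:77824618-77824647, plus strand: ctccgggctcggATTGGctggccgcgccat
Elovl2, Sp1 box 124 bases before the start, chr13:41373986-41374015, minus strand: gccagcggcgcgGGGCGGaggaaacggccc
Elovl2, Sp1 boxes 75 and 63 bases before the start, chr13:41373937-41373966, minus strand: gcgcgcccgaggGGGCGGggaggcGGGCGG
The first Elovl2 window held 5 Sp1 boxes and was 84.7% G and C, against a median of 52.7% over all windows, while the Elovl5 window was 57.7% G and C. The lowest of the 9 windows, that of Elovl6, was 55.7% G and C, also above that median. A match of letters is a description of the window and shows no binding.

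Fads2, the delta-6 desaturase that opens the polyunsaturated branch, was at 379, 401 and 404 CPM in the DIO libraries and at 489, 455, 499, 455 and 509.9 CPM in the DIO + DHA libraries. The groups did not overlap and the difference was modest, with means of 394 ± 13.8 (SD, n = 3) and 481.5 ± 25.4 CPM (SD, n = 5). The log2FC was 0.29 with a standard error (SE) of 0.068, a rise of 21.9% (edgeR adjusted p = 0.00139). Fads1, the delta-5 desaturase that makes arachidonic acid and EPA, was at 413, 436 and 445 CPM in DIO and at 516, 464, 546, 497 and 609.5 CPM in DIO + DHA. It too was separate between groups, with the lowest DIO + DHA library close above the highest DIO library. Its log2FC was 0.29 (SE 0.072, edgeR adjusted p = 0.00278), the same to 2 decimals as that of Fads2.

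The elongases of the branch differed by more. Elovl5, which lengthens the products of FADS2, was at 213, 176 and 198 CPM in DIO and at 414, 408, 356, 358 and 392 CPM in DIO + DHA. Every DIO + DHA library lay well above every DIO library, and the means were 196 ± 18.5 (SD, n = 3) and 386 ± 27.1 CPM (SD, n = 5). The log2FC of Elovl5 was 0.99 (SE 0.076, edgeR adjusted p = 4.31e-16), a fold of 1.99. Elovl2, which lengthens 20- and 22-carbon polyunsaturated acids on the way to DHA, was at 201, 196 and 169 CPM in DIO and at 375, 441, 349, 439 and 352 CPM in DIO + DHA. Its DIO + DHA libraries lay in an upper pair (replicates 2 and 5) and a lower group of 3, all above DIO, and its log2FC was 1.06 (SE 0.083, edgeR adjusted p = 1.85e-14), a fold of 2.09. Replicates 2 and 5, the highest for Elovl2, were also the lowest DIO + DHA libraries for Fads2 and for Fads1, so the spread within the DIO + DHA group did not run in parallel for these genes.

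Scd1 showed the largest log2FC of the 10 genes. It was at 353, 369 and 383 CPM in DIO and at 942, 986, 866, 909 and 856 CPM in DIO + DHA, with no overlap and a gap wider than the range of either group. The means were 368 ± 15.0 (SD, n = 3) and 912 ± 54.0 CPM (SD, n = 5), and the log2FC was 1.30 (SE 0.069, edgeR adjusted p = 6.93e-23), a fold of 2.47. By p-value Scd1 was number 26 of the 12412 genes tested, Elovl5 number 77 and Elovl2 number 100. Scd2, a stearoyl-CoA desaturase better known from brain, was near its detection limit, with 1 to 14 counts per library and 1.14 ± 0.502 CPM in DIO against 1.87 ± 0.831 CPM in DIO + DHA. Its log2FC was 0.49 with a 95% interval from -0.47 to 1.46 (edgeR adjusted p = 0.578), so neither no difference nor a difference as large as that of Scd1 was outside the interval at this depth. Reads that aligned to more than 1 place were not counted, so a read shared by Scd1 and a paralog is in neither count.

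Elovl6, which lengthens palmitate, was at 14.6, 13.0 and 13.1 CPM in DIO and at 19.8, 20.8, 21.8, 18.7 and 18.8 CPM in DIO + DHA. The groups were separate, and the log2FC was 0.57 (SE 0.154, edgeR adjusted p = 0.00533) on 26 to 100 counts per library. Elovl1, which lengthens saturated and monounsaturated chains to very long ones, overlapped between the groups, with 36.0 to 44.7 CPM in DIO and 39.6 to 46.4 CPM in DIO + DHA. Its log2FC was 0.02 with a 95% interval from -0.20 to 0.23 (edgeR adjusted p = 0.947), an interval that leaves out a difference of the size seen for Fads2.

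Fads6, a member of the desaturase family, was at 35.4, 41.8 and 34.1 CPM in DIO and at 45.6, 49.3, 43.5, 45.0 and 48.5 CPM in DIO + DHA. The libraries were separate by a small gap, and the log2FC was 0.31 (SE 0.108) with an edgeR adjusted p of 0.0401. This call was the least secure of the 7. It was lost without DIO replicate 1 (edgeR adjusted p = 0.0843) or 5 (0.267) and without DIO + DHA replicate 1 (0.0669), 2 (0.0864), 4 (0.0526) or 6 (0.0758). Fads3, a desaturase of the sphingolipid pathway, held 3 to 19 counts per library, at 1.69 to 3.37 CPM in DIO and 2.14 to 4.02 CPM in DIO + DHA. Its groups overlapped, and the log2FC was 0.15 with a 95% interval from -0.57 to 0.87 (edgeR adjusted p = 0.852).

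**Figure D2:**
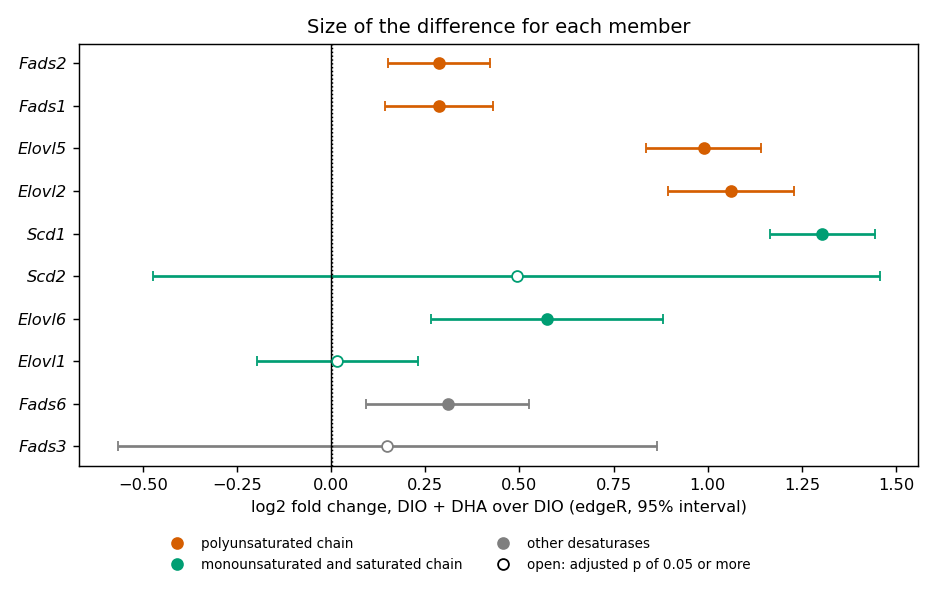
Log2FC (DIO + DHA over DIO) of each gene with its 95% interval from edgeR, coloured by branch, filled where the adjusted p is under 0.05; the dotted line is the median of all tested genes. Scd1 (1.30), Elovl2 (1.06) and Elovl5 (0.99) lie apart from Fads1 and Fads2 (both 0.29), and the intervals of Scd2 and Fads3 are the widest.

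The test and threshold bear on how many of these calls stand. With the criterion of the study, limma-voom and log-odds (B) over 0, 3 of the 10 genes were called higher (Elovl2, Elovl5 and Scd1), against 3.73% of all tested genes called higher and 3.20% called lower by it, and Fads1, Fads2, Elovl6 and Fads6 fell short of it, although limma's adjusted p was 0.00549, 0.00157, 0.00549 and 0.0444.

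Ratios of counts within a library do not depend on scaling between libraries, and those given here describe how the genes differed relative to each other. The Scd1 to Fads2 ratio was 0.933, 0.920 and 0.949 in DIO and 1.93, 2.17, 1.73, 2.00 and 1.68 in DIO + DHA. In DIO there were thus fewer Scd1 than Fads2 counts in every library, and in DIO + DHA more in every library. The Elovl2 to Fads2 ratio ranged from 0.417 to 0.532 in DIO and from 0.690 to 0.970 in DIO + DHA, and the Elovl5 to Fads2 ratio from 0.440 to 0.563 and from 0.713 to 0.897. The Elovl6 to Scd1 ratio was lower in DIO + DHA, at 0.0206 to 0.0251 against 0.0343 to 0.0414, and the Scd1 to Elovl5 ratio was higher, at 2.18 to 2.54 against 1.66 to 2.09. The Scd1 to Fads1 ratio was separate as well, at 0.846 to 0.862 in DIO and 1.40 to 2.13 in DIO + DHA. Both ratios within a step type overlapped between groups. Fads1 to Fads2 was 1.09 to 1.1 in DIO and 1.02 to 1.20 in DIO + DHA, and Elovl2 to Elovl5 was 0.853 to 1.11 and 0.897 to 1.23.

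**Figure D3:**
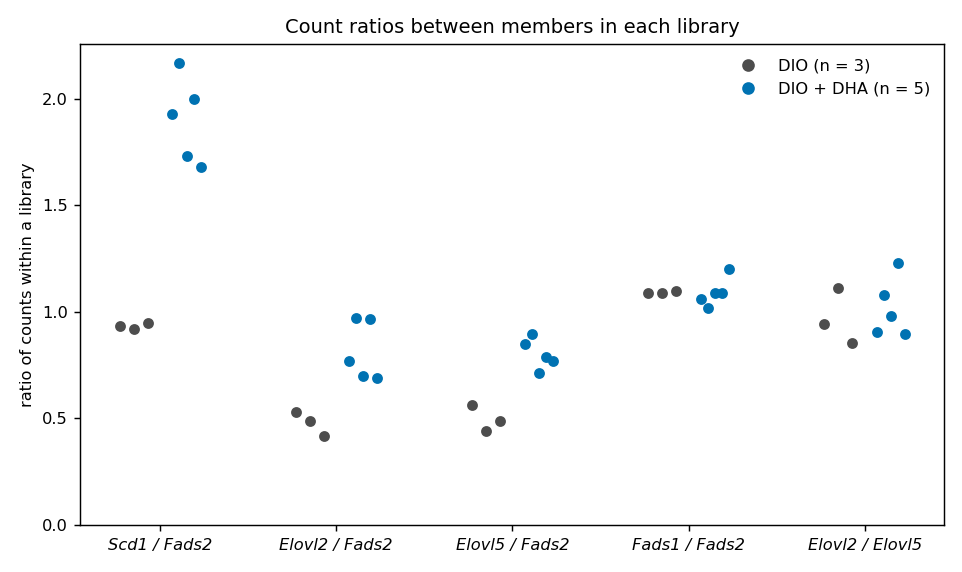
Ratio of the counts of a pair of genes within each library (points, linear axis from 0; DIO n = 3, DIO + DHA n = 5). Scd1, Elovl2 and Elovl5 relative to Fads2 are separate between groups, with Scd1 to Fads2 at 0.920 to 0.949 and 1.68 to 2.17, while Fads1 to Fads2 and Elovl2 to Elovl5 overlap.

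The order of the genes was compared on levels per length, as CPM per kb of annotated exon, with the limit that cDNA enriched in 3′ ends does not scale with transcript length. In DIO the order of these levels was Fads2 (120 ± 4.18 CPM per kb), Fads1 (89.6 ± 3.43), Scd1 (75.3 ± 3.07), Elovl5 (55.6 ± 5.26) and Elovl2 (47.6 ± 4.42, SD, n = 3 each), of which only Elovl5 and Elovl2 overlapped as neighbours. In DIO + DHA the order of levels was Scd1 (186 ± 11), Fads2 (146 ± 7.7), Elovl5 (109 ± 7.71), Fads1 (109 ± 11.5) and Elovl2 (98.7 ± 11.5, SD, n = 5 each), and the last 3 overlapped as neighbours. Scd1 was thus below Fads2 and Fads1 in DIO and at the top in DIO + DHA, above Fads2 in 5 of 5 libraries. By CPM without length these places of Scd1 were the same, but that of Fads1 was not. Its mean then exceeded that of Fads2 in DIO (431 against 394 CPM) and in DIO + DHA (526.5 against 481.5 CPM). In DIO + DHA it also exceeded that of Elovl5 (386 CPM). Below these came, in the same order in both groups, Elovl1 (15.1 CPM per kb in DIO and 15.6 in DIO + DHA), Fads6 (5.58 and 6.97), Elovl6 (2.11 and 3.11), Fads3 (0.619 and 0.745) and Scd2 (0.209 and 0.343), with no overlap between neighbours in either group.

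The genes whose log2 CPM followed a member most closely over the 8 libraries, among 6216 tested genes of at least 10 CPM, were listed for 1 desaturase of each branch. These were Fads2, which opens the polyunsaturated branch, and Scd1, the main liver form of its family. For Fads2 they were Gm11789 (r = 0.992), Pomp (0.989), Rab30 (0.989), Sec14l2 (0.987) and Rbp4 (0.987), and after removal of the group means r was 0.919 to 0.972. For Scd1 they were Myh2 (r = 0.997), Tpm2 (0.997), Slc25a4 (0.996), Myl1 (0.995) and Tnnt3 (0.995), with 0.495 to 0.773 after removal of the group means. Of the Scd1 list, Myh2, Tpm2, Myl1 and Tnnt3 encode proteins of the muscle sarcomere. Myh2 was at 0 to 0.36 CPM in DIO and passed the filter on low counts only through DIO + DHA. These r describe 8 libraries in 2 groups and a clear group difference alone can give a high value.

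Markers of other tissues moved with the groups and were therefore counted. Their counts of calls thus describe these data and are not a test of them. The livers held their defining hepatocyte markers, 10 of 10, at a summed 109000 to 116000 CPM in DIO and 111000 to 124000 CPM in DIO + DHA, with 3 of them called higher and 3 lower. Over all genes tested, 7.89% were called higher and 7.28% lower, shares that apply to each count of calls in this paragraph. Skeletal muscle markers summed to 1290 to 1390 CPM in DIO + DHA against 32.1 to 37.1 CPM in DIO. Of them 15 of 15 were called higher, against 7.89% of all genes tested. Among these, Tnnc2, Myh2, Myh4, Mb, Atp2a1, Mybpc2 and Casq1 passed the filter on low counts only through DIO + DHA. Stratified squamous epithelium markers were at 73.7 to 83.6 CPM against 0.563 to 0.902 CPM, with Krt5, Krt13 and Krt14 at 0 in every DIO library. Their 5 tested genes passed that filter only through DIO + DHA, so these calls could not have gone the other way. White adipocyte markers summed to 45.4 to 69.9 CPM against 10.1 to 12.6 CPM (3 of 4 tested higher). Among them Adipoq was at 1.19 to 7.85 CPM against 0 to 1.69 CPM, and Adipoq and Retn passed the filter only through DIO + DHA. Brown adipocyte markers summed to 116 to 144 CPM against 21.3 to 25.9 CPM (4 of 4 tested higher). Most of the DIO + DHA sum was Cox8b (52.7 to 72.5 CPM) and Cox7a1 (53.87 to 64.67 CPM). Ucp1 was at 2.85 to 5.03 CPM in DIO + DHA and 0 in DIO, and Cidea at 1.984 to 3.351 CPM against 0 to 0.3549 CPM. Ucp1 and Cidea passed the filter only through DIO + DHA, and Dio2 and Zic1 did not pass it. Sebaceous gland markers were at 0.874 to 3.02 CPM against 1.08 to 1.6 CPM, with Awat1 and Dgat2l6 at 0 in all 8 libraries. Macrophage and Kupffer cell markers were lower in DIO + DHA, at 502 to 537 CPM against 870 to 974 CPM (10 of 12 lower), while Marco, a Kupffer cell receptor of the same list, was higher (log2FC 0.66, edgeR adjusted p = 0.000109). Adipose tissue and skin glands are known to express Scd1, and brown fat Elovl3 and Elovl6. The part of these tissues in the differences was not tested.

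Other genes of the same pathways were followed in 7 lists of 68 genes, of which 59 were tested, 14 were higher and 4 lower, with a median log2FC of 0.09. Over all genes tested, 7.89% were called higher and 7.28% lower, so the count lower was near the share over all genes. The same shares apply to the counts of each list below. Of 7 further desaturases and elongases, Scd3, Scd4, Elovl4, Elovl7 and Degs2 did not pass the filter on low counts. Elovl3, an elongase of saturated chains, was higher, with 2.81, 3.61 and 3.19 CPM in DIO and 5.16, 4.36, 8.92, 8.20 and 6.33 CPM in DIO + DHA. Its log2FC was 0.98 (edgeR adjusted p = 0.00985), and without DIO replicate 5 the adjusted p was 0.0572. Degs1, a ceramide desaturase, had a log2FC of 0.14 (edgeR adjusted p = 0.405).

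The elongase only condenses the chain with malonyl-CoA, and 3 further enzymes complete each cycle. Of 6 tested genes for them, 2 were higher. Hsd17b12, the keto reductase, was at 68.1, 73.8 and 71.2 CPM in DIO and at 94.4, 100.2, 99.5, 106 and 97.0 CPM in DIO + DHA (log2FC 0.48, edgeR adjusted p = 2.47e-05). Hacd2, a dehydratase, was at 44.4, 43.1 and 42.0 CPM in DIO and at 67.4, 63.0, 67.8, 65.1 and 64.6 CPM in DIO + DHA (log2FC 0.61, edgeR adjusted p = 1.89e-06). Both were separate between the groups. Tecr, the last reductase and the gene of largest mean CPM in the list, was at 279 CPM in DIO and 288 CPM in DIO + DHA (log2FC 0.04, edgeR adjusted p = 0.797). Hacd4 was lower (log2FC -1.57, edgeR adjusted p = 0.0256) at no more than 2.52 CPM in any library, with 4, 14 and 12 counts in DIO and 0 to 6 in DIO + DHA. It passed the filter on low counts only through DIO, the group where it is high, and was not tested under the 2 stricter filters. Its adjusted p was 0.138 or 0.0736 without DIO replicate 4 or 5, and 0.0582 or 0.084 when replicate 2 or 5 of the DIO + DHA group was left out.

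Desaturases draw electrons from cytochrome b5 and its reductase, and of 5 tested genes 0 were higher (also at an unadjusted p under 0.05) and 1 was lower by edgeR. Cyb5r3, the main reductase, was at 394, 398 and 419.8 CPM in DIO and at 299.9, 308, 318, 318 and 274 CPM in DIO + DHA, a log2FC of -0.42 (edgeR adjusted p = 3.85e-06) in the opposite direction to the desaturases. Cyb5a, the microsomal cytochrome b5, had means of 1791 and 1784 CPM and a log2FC of -0.01 (95% interval from -0.14, edgeR adjusted p = 0.968).

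The last step to DHA is a round of peroxisomal chain shortening, and 5 of the 10 genes listed for it were higher and 0 lower by edgeR, with 0 lower at an unadjusted p under 0.05 too. Ehhadh, the bifunctional enzyme best known as a PPARα target, was at 154, 144 and 159 CPM in DIO and at 358, 361, 377, 359.5 and 355 CPM in DIO + DHA (log2FC 1.25, edgeR adjusted p = 7.68e-21). Hsd17b4, the bifunctional enzyme that serves DHA synthesis, rose from 289.7 to 374 CPM (log2FC 0.37, edgeR adjusted p = 4.9e-05). Acaa1b, a thiolase, had a log2FC of 0.46 (edgeR adjusted p = 1.37e-05). Abcd3, a peroxisomal transporter, had a log2FC of 0.26 (edgeR adjusted p = 0.00919, and 0.0537 without DIO + DHA replicate 2).

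Of the 7 genes that make palmitate, only Fasn (fatty acid synthase) was higher and 0 were lower, with Acacb, a regulator of fatty acid oxidation, at an unadjusted p of 0.0166 and a log2FC of -0.36. Fasn rose from 34.4 to 44.1 CPM (log2FC 0.34, edgeR adjusted p = 0.027). Its adjusted p was 0.0798 without DIO replicate 1 and 0.17 without DIO replicate 4, and 0.0806 or 0.0819 when replicate 1 or 5 of the DIO + DHA group was left out. Slc25a1, the citrate carrier and the gene of largest mean CPM in the list, had a log2FC of -0.02 (edgeR adjusted p = 0.893). The list's median log2FC was 0.0096.

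Of 8 tested genes that attach coenzyme A to fatty acids, 4 were higher and 1 lower. Acsl1 rose from 402.5 to 531.5 CPM (log2FC 0.40, edgeR adjusted p = 6.15e-06) and Acsl5 from 156 to 238 CPM (log2FC 0.61, edgeR adjusted p = 4.06e-09). Slc27a2, a very-long-chain acyl-CoA synthetase of liver and the gene of largest mean CPM in the list, rose from 1653 to 2375 CPM (log2FC 0.52, edgeR adjusted p = 0.00265, and 0.0759 with libraries scaled by their size only). Slc27a1, a fatty acid transporter of muscle and fat, had a log2FC of 0.92 (17.6 to 30.9 CPM, edgeR adjusted p = 9.03e-07), beside the muscle and adipocyte markers given above. Slc27a5, the bile acid ligase, was lower by a small amount with overlapping libraries (log2FC -0.19, edgeR adjusted p = 0.0472). Without DIO replicate 1, 4 or 5 that adjusted p was 0.0501, 0.0954 or 0.329, and without DIO + DHA replicate 1, 2 or 5 it was 0.101, 0.0884 or 0.128.

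Of 21 transcriptional regulators of these genes, 1 was higher and 1 was lower, no more than the shares over all genes tested (7.89% and 7.28%). Insig2, which holds the SREBP precursor in the endoplasmic reticulum, was at 155, 176 and 162 CPM in DIO and at 400.5, 407.5, 385, 346 and 419 CPM in DIO + DHA. The groups were far apart, with a log2FC of 1.25 (edgeR adjusted p = 3.77e-20), close to that of Scd1. Nr1h2 (LXRβ) was lower, from 18.9 to 13.1 CPM (log2FC -0.54, edgeR adjusted p = 0.0111), with an adjusted p of 0.0748 without DIO replicate 4 and 0.1 without DIO replicate 5.

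Unlike Nr1h2, the transcripts of Srebf1, Mlxipl, Ppara and Nr1h3, which encode factors known to drive members, did not pass the test. The activity of these factors was not measured. Srebf1, which encodes SREBP-1, was at 18.0, 20.2 and 17.0 CPM in DIO and at 12.5, 17.4, 12.8, 14.8 and 14.8 CPM in DIO + DHA, with overlapping libraries and a log2FC of -0.36 (edgeR adjusted p = 0.116). Counts on the whole gene do not separate the SREBP-1a and SREBP-1c forms. Mlxipl (ChREBP) had a log2FC of -0.22 (edgeR adjusted p = 0.109, and 0.0334 without DIO + DHA replicate 6), and Ppara one of -0.18 (edgeR adjusted p = 0.251, and 0.0156 without DIO replicate 1). Nr1h3 (LXRα) was at 153 CPM in both groups (log2FC -0.01, edgeR adjusted p = 0.97).

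**Figure D4:**
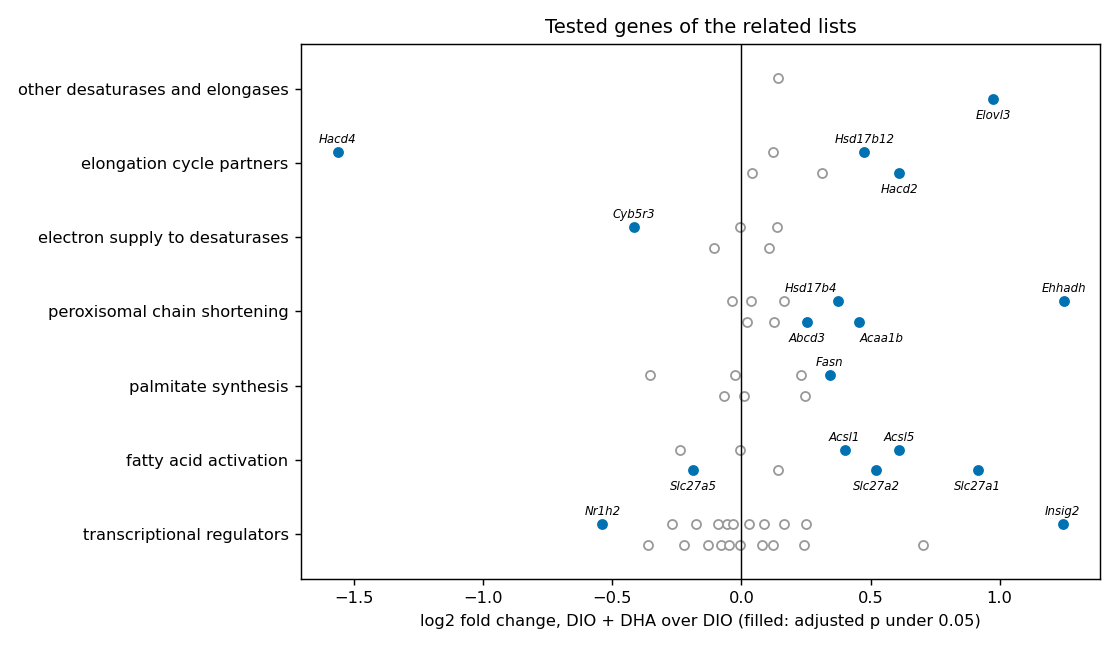
Log2FC (DIO + DHA over DIO) of the tested genes in the 7 related lists, with 1 gene of the peroxisomal list not shown; filled points, with names, have an edgeR adjusted p under 0.05, and open points do not. Fasn is the only filled point of palmitate synthesis, Ehhadh and Insig2 (both 1.25) lie farthest to the right, and Hacd4 (-1.57), at 0 to 14 counts per library, lies farthest to the left.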

How the data were processed

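Poly(A) RNA of 8 livers was made into 3′-enriched cDNA by the authors with an adapted SCRB-seq protocol, whose primer holds a barcode and a unique molecular identifier (UMI). Reads were checked with FastQC 0.11.8, aligned to GRCm39 with STAR 2.7.9a and assigned to exons of GENCODE vM33 genes with featureCounts 1.6.0. The deposited values are unnormalized whole-number counts per gene. The counting command, per the file headers, set no strand, multi-mapping or overlap option, so antisense overlap is not resolved and shared reads are left out. Whether UMIs were collapsed is not given in the sources used here, and counting error may be understated. All samples carry the same batch label.

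Tables were joined on gene identifier and named from GENCODE vM39 (56323 of 56884 identifiers). Totals were 1723800 to 5690347 counts per library, and the coefficient of biological variation was 0.0801. Genes were kept if at least 50% of the libraries in either group reached 5 counts, the study's own filter. The test was edgeR 4.0.16 in R 4.3.3 (TMM, robust quasi-likelihood F test, Benjamini-Hochberg adjustment). On simulated counts the test recovered 98% of the larger and 64% of the smaller differences put in, with 14 false calls among 176. The smaller size still exceeded the log2FC seen here for Fads1, Fads2 and Fads6. No library pair of a group agreed within counting error. Groups came from the sample titles, p-values measure the spread between mice, and the same replicate numbers in both groups did not pair samples. Mice shared cages, and the cage of each mouse is not given. The p-values do not cover a difference in cage, handling or sampling between the groups, which cannot be told apart from diet. The members, the lists, the other-tissue markers and the promoter motifs were chosen with earlier results of these data known.

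Named from each list were all its genes that passed the test if at most 5 did, otherwise the 3 of largest mean CPM and the 2 of smallest p-value, its gene of largest mean CPM, and always Srebf1, Nr1h3, Mlxipl and Ppara. Other-tissue and cell type markers were summed as CPM; those of cholangiocytes were at 57.3 to 63.6 CPM in DIO and 56.9 to 69.6 in DIO + DHA, of stellate cells at 234 to 253 and 195 to 221, of endothelial cells at 150 to 168 and 104 to 127, and of T and NK cells at 27 to 35.4 and 8.9 to 12.7. Alternatives (19) covered scaling, the test (DESeq2 1.42.0, limma 3.58.1), filters, thresholds, a replicate block and leaving out each library. Of the peroxisomal list, 1 gene is counted but not reported here. Proteins and fatty acid levels were not analysed here.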

Additional observations from a re-analysis of the deposited data

Results flagged for a closer look

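Of 36 named genes, 1 had a library that stood apart within the DIO + DHA group by Dixon's test. Ehhadh, the peroxisomal bifunctional enzyme, was at 377 CPM in replicate 4 and at 355 to 361 CPM in the other libraries of the group, a gap of 0.73 of the range against a critical value of 0.71. Chance flags about 1 in 20 such groups. All DIO + DHA libraries remained above the DIO libraries for this gene, and none of the 10 desaturases and elongases met the criterion. The group of 3 DIO libraries was not tested.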

How the results depend on the processing

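Elovl2, Elovl5 and Scd1 kept their direction and call under all 19 alternatives, with log2FC of 0.99 to 1.11, 0.92 to 1.05 and 1.27 to 1.35. Fads1, Fads2 and Elovl6 lost the call only under limma-voom with B above 0, where 3 members, 2 of the polyunsaturated branch and 1 other were called higher. Fads6 lost it in 12 of 19. The related genes called lower were 1 under DESeq2's Wald test, B above 0, an adjusted p under 0.01 or the replicate block, and 1 to 5 when a library was left out. Near-zero differences changed sign: Elovl1 to -0.0018 with library size only and -0.031 to 0.0889 when a library was left out, Fads3 to -0.0414 to 0.560, Cyb5a to -0.0752 to 0.0438 and Nr1h3 to -0.0435 to 0.103 when a library was left out, and Nr1h3 to 0.0203 and Slc25a1 to 0.0157 with the block. The cause was not tested. The replicate number did not pair the samples (r of same-numbered deviations -0.0133, -0.0135 and -0.0111), and as a block it left 6 members higher, Fads6 losing its call. Of 187 member values under the alternatives, 167 kept side and direction, 15 lost the call, 0 gained one and 5 reversed; of 491 for related genes, 443 did, 38 lost, 2 gained and 8 reversed. At under 20 counts per library, Scd2 and Fads3 allow wide intervals.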
